A study of Homo sapiens with 15 samples.

Results

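Replication-dependent histone genes encode the core histones H2A, H2B, H3 and H4 and the linker histone H1 that package newly copied DNA. They were taken as every gene whose symbol follows the old HIST pattern or its newer H1, H2A, H2B, H3 and H4 equivalents, without antisense genes, and there were 74 of them among the 43388 genes of the count tables. By symbol, 6 belong to class H1, 18 to H2A, 20 to H2B, 15 to H3 and 15 to H4. Expression was measured by RNA-seq of total RNA from wild type A549 cells, a human lung adenocarcinoma line used as a model of alveolar epithelium. The cells were kept for 72 hours in 95% oxygen (hyperoxia) or in 21% oxygen (normoxia). At each oxygen level there were 2 libraries with ethanol vehicle, 3 with 1e-05 mM ATRA (all-trans retinoic acid, the active form of vitamin A) given from 24 hours before the exposure, and 2 with neither vehicle nor ATRA. All groups came from the same cell line, and the labels do not say that replicates were separate cultures, so p-values measure the spread between these libraries, which may be technical.

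These genes lie in clusters, and their mRNAs differ from most others in that they usually lack introns and end in a conserved stem-loop in place of a poly(A) tail. The stem-loop is bound by SLBP, which together with the U7 small nuclear RNP directs the cut that forms the mRNA end. Their mRNAs accumulate during S phase, when DNA is copied, and are degraded when replication stops, whereas replacement histones such as H3.3 and H2A.Z are made through the cell cycle from polyadenylated mRNAs. Of the 74 genes, 56 lie in the cluster on chromosome 6, 14 and 3 in the clusters on chromosome 1 and 1 on chromosome 12.

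The stem-loops are shown for genes that the results turn on, since they are the feature that sets these mRNAs apart. The sequences are from the hg38 genome, the coordinates mark the capitals, and the capitals mark the 16 bases of the stem-loop:
HIST1H1D, chr6:26234217-26234232, - strand: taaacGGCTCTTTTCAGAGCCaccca
HIST1H1C, chr6:26055744-26055759, - strand: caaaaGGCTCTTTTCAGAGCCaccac
HIST1H2BM, chr6:27815469-27815484, + strand: ccaaaGGCTCTTTTCAGAGCCgtcca
HIST1H2BK, chr6:27146366-27146381, - strand: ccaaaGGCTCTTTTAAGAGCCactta
HIST2H2BE, chr1:149886188-149886203, - strand: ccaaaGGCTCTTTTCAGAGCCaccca
HIST1H3B, chr6:26031597-26031612, - strand: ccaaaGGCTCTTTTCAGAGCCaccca
HIST1H4E, chr6:26205001-26205016, + strand: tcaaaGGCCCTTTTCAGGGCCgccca
The histone stem-loop pattern was searched on the coding strand in the 150 bases after the stop codon. It fixes the outer bases and the innermost pair of the stem and part of the loop, and leaves the other bases free. All 71 members with a coding transcript held the pattern, against 10 of 4008 other genes on the same 3 chromosomes (0.25%). The remaining 3 members are annotated as pseudogenes. The letters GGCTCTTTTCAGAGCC occurred in 41 members, including HIST1H1D, which was called lower in hyperoxia, and HIST1H1C, which was not. HIST1H2BK has the variant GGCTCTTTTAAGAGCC, which occurred in 10 members, and HIST1H4E has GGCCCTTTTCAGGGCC, which also occurred in 10. The stem-loop letters were thus shared by genes that were called lower and by genes that were not.

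Promoters are shown for a pair of H1 genes and a pair of H2B genes whose levels moved differently. Each is the 250 bases before the RefSeq start in GRCh38.p14, with capitals on either strand for the CCAAT box, for the TATA box letters TATAAA, for the octamer ATTTGCAT and for the H1 box AAACACA (matches of the TATA box letters on both strands may overlap):
HIST1H1D, chr6:26234988-26235237, - strand: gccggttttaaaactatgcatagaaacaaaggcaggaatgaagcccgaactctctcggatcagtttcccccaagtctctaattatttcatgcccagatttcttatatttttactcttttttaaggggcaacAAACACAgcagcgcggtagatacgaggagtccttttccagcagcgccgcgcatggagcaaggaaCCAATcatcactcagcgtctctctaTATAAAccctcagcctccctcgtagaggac
HIST1H1C, chr6:26056471-26056720, - strand: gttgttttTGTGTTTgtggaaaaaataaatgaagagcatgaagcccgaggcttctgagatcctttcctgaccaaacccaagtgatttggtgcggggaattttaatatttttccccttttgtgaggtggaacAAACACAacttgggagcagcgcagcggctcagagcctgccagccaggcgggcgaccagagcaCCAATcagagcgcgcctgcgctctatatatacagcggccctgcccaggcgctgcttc
HIST1H2BM, chr6:27814772-27815021, + strand: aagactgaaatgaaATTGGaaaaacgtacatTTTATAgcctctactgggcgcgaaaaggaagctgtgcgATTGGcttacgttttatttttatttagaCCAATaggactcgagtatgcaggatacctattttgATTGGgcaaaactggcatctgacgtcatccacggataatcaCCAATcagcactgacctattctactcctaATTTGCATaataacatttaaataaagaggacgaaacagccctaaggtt
HIST1H2BK, chr6:27146856-27147105, - strand: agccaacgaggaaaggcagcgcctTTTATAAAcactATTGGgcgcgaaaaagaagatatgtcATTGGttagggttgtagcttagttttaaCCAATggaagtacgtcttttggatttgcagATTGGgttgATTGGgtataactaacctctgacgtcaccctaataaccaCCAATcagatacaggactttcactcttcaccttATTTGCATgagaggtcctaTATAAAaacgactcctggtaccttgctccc
Motifs were counted on both strands over 300 bases, from 250 before to 50 after each start, in the 66 members with a RefSeq promoter. CCAAT was present in 84.8% of these members against 34.6% of all 35116 promoters of the same length, but in only 23.1% of H4 promoters. The octamer was found in 77.8% of H2B and 68.8% of H2A promoters and in 1.77% of all promoters, and no H1, H3 or H4 promoter held it. AAACACA was found in all 6 H1 promoters and in 5.64% of all promoters. Both H1 promoters shown hold CCAAT and AAACACA, and both H2B promoters shown hold CCAAT and the octamer, so neither pair differs in the presence of these. The letters TATAAA occurred in the HIST1H1D promoter and not in that of HIST1H1C, which has tatatata near its start. Both H2B promoters held them on at least 1 strand. The only match in HIST1H2BM was on the opposite strand, at the end of the stretch far from the start. HIST1H2BK also had a match on the coding strand near its start.

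Libraries held between 2642377 and 5605072 counts on genes, of which the histone genes took between 0.0444% and 0.164%, or 1429 to 6409 counts. The limit of 3 counts corresponds to between 0.53 and 1.13 CPM (each count over the TMM-scaled total of its library, as a rate) and covers counting error only. Hyperoxia replicate 1 without vehicle stood apart, with 12657 genes detected against at least 16465 in every other library, and 50 of the 74 histone genes were at 0 in it. Of 8 A549 markers, 5 were lower in hyperoxia with vehicle, 4 with ATRA and 4 without vehicle, and 0 were higher. The epithelial keratin KRT18 lay between 2120 and 3530 CPM in normoxia and between 510 and 1220 CPM in hyperoxia, and the adhesion gene EPCAM between 1.74 and 4.82 CPM and between 0 and 1.06 CPM. In contrast, the defining markers of leukocytes (PTPRC) and endothelium (VWF) did not exceed 0.179 and 0 CPM. Summed over 8 markers of other cells, levels were 27.4 to 39.3 CPM in normoxia and 61.5 to 101 CPM in hyperoxia, with CD68 at 17.5 to 32.6 CPM and at 60.7 to 101 CPM. COL1A1, a collagen gene, reached 12.2 CPM in normoxia and 1.58 CPM in hyperoxia. The part of these marker changes in the results was not tested. The labels name no batch.

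Counts sufficed to test 48 of the 74 genes. Of the 26 that were not tested, 25 had at most 10 counts in every library and 6 had none in any. The count tables leave out reads that align to several places, and 8 of the untested genes share over 90% of their 50-base stretches with another member, namely HIST2H2AA3, HIST2H2AA4, HIST2H3A, HIST2H3C, HIST2H4A, HIST2H4B, HIST1H4J and HIST1H4K, so their low counts say little of their expression. Among tested genes, HIST1H2AI shares 63.5% of its stretches in this way, HIST1H2AJ 66.3%, HIST2H2BF 68.8% and HIST2H3D 70%, and their values are uncertain for the same reason. HIST1H4I lies within the span of HIST1H2BK, on the opposite strand. Depending on the strand and overlap settings, which are not given, its reads could have been left out of the counts. Of the 48 tested genes, 32 passed the filter on low counts in at least 2 hyperoxia libraries. The other 16 passed only through normoxia, and since genes tested in this way had to be lower in hyperoxia, their calls are no support for a fall and are given apart. In the fit of all 14 libraries, used for the comparison without vehicle, the split was 35 and 13.

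Mean histone mRNA was lower in hyperoxia in each treatment, and class H3 had the largest fold, though groups without vehicle overlapped. Summed over the 74 genes, the 2 vehicle libraries in normoxia had 1280 and 661.6 CPM and those in hyperoxia had 509.2 and 468.3 CPM. With ATRA, the 3 normoxia libraries had 1230, 1030 and 1692 CPM and the 3 hyperoxia libraries had 436.8, 531.3 and 459.8 CPM. Without vehicle, the normoxia libraries had 527.6 and 1277 CPM and the hyperoxia libraries had 446.3 and 586 CPM. The groups were apart with vehicle and with ATRA, while without vehicle they overlapped, because normoxia replicate 1 lay below a hyperoxia library. Mean levels in normoxia were thus 1.99-fold those in hyperoxia with vehicle, 2.77-fold with ATRA and 1.75-fold without vehicle. In bulk RNA, fewer cells in S phase and less histone mRNA in each cell cannot be told apart.

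Class H3, whose members form the core of the nucleosome with H4, had the widest gap. Its sum was 35 to 263 CPM over the 7 normoxia libraries, with a median of 130 CPM, and 9.57 to 44.4 CPM over the 7 hyperoxia libraries, with a median of 24.2 CPM. The ranges overlapped only through normoxia replicate 1 and hyperoxia replicate 2, both without vehicle. The normoxia mean was 4.68 times the hyperoxia mean with vehicle and 8.64 times with ATRA, log2 differences of -2.23 ± 0.57 and -3.11 ± 0.88 (hyperoxia minus normoxia, SD). Class H2A did not overlap between oxygen levels, at 103 to 359 CPM in normoxia and 68.7 to 97.8 CPM in hyperoxia, and its fold was 2.97 with vehicle and 3.58 with ATRA. Class H4 had a fold of 2.03 with vehicle and 2.22 with ATRA, and class H2B one of 1.61 and 2.3. Class H1 had a fold of 1.39 with vehicle, where its groups overlapped, and of 2.3 with ATRA. Without vehicle, the folds were 4.08 for H3, 2.3 for H2A, 2.04 for H4, 1.38 for H2B and 1.23 for H1. Only the H2A groups were apart there, and the log2 difference of H3 was -2.03 ± 2.31 (SD). The H1 sum rests heavily on HIST1H1C, which held 44.7% of the class counts: without this gene and the most abundant member of each other class, the log2 difference of H1 with vehicle went from -0.47 to -1.88 and that of H2A from -1.57 to -2.49.

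**Figure D1:**
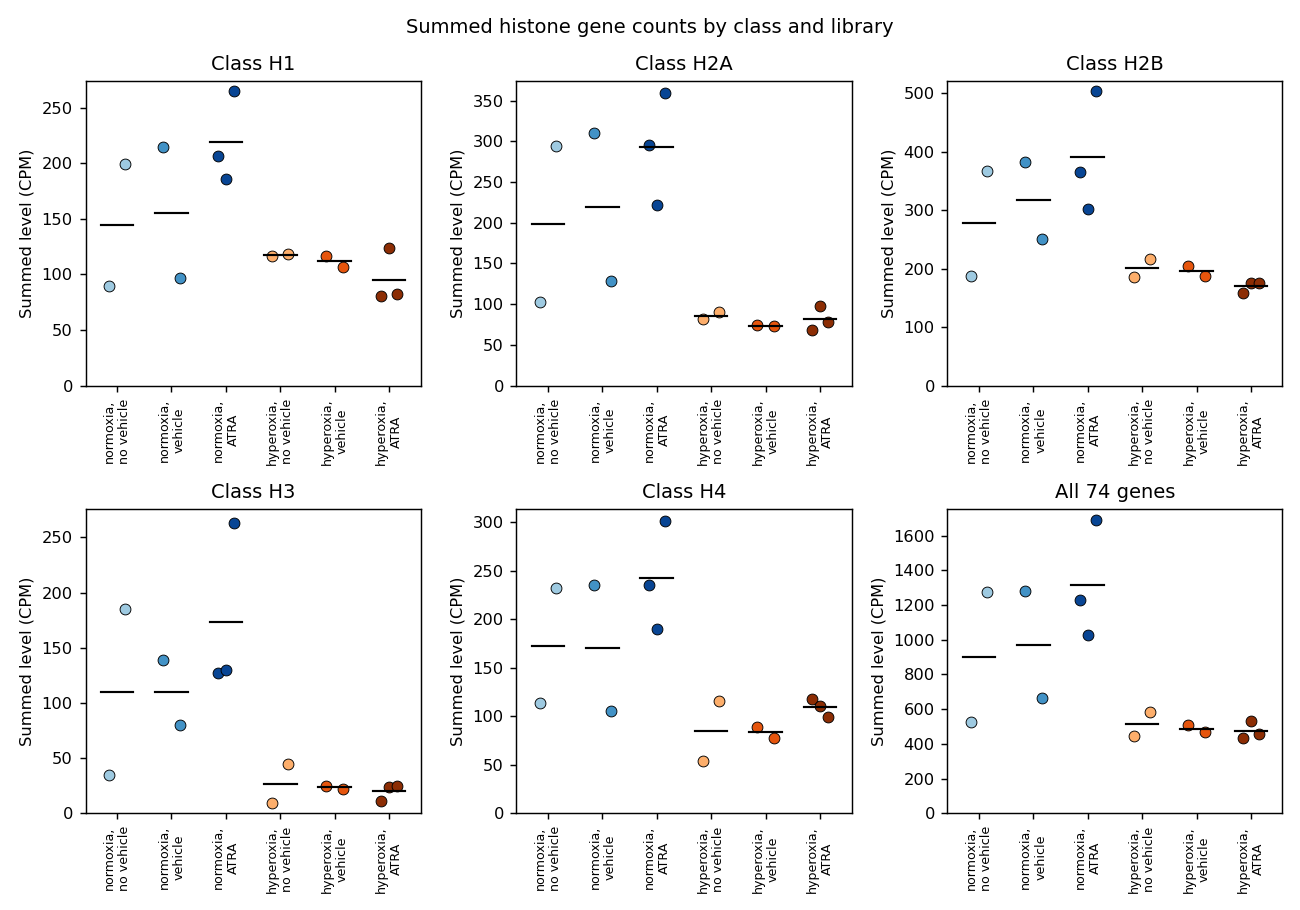
Summed level (CPM) of the histone genes of each class and of all 74 genes in the 14 labelled libraries. Each point is 1 library, horizontal lines are group means and each axis starts at 0; the H2A points in hyperoxia (at most 97.8 CPM) all lie below those in normoxia (at least 103 CPM), and normoxia varied more between libraries than hyperoxia did.

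With vehicle, 27 of the 48 tested genes passed edgeR's quasi-likelihood test as lower in hyperoxia (Benjamini-Hochberg adjusted p under 0.05), against 8.81% of all genes tested, and 0 as higher, against 8.68%. At an unadjusted p under 0.05, 32 were lower and 1, HIST1H1C, was higher. DESeq2 called 29 lower and 0 higher. Of the 27, 19 came from the 32 genes that passed the filter within hyperoxia (59.4%, against 9.13% of all genes that passed in this way) and 8 from the 16 that passed only through normoxia. The median log2 fold change was -1.78 over the 32 genes, against 0.04 for all genes that passed within hyperoxia, and -2.12 over the 48. The count was sensitive to the libraries: it was 9 in a fit of all 14 labelled libraries, 17 without hyperoxia vehicle replicate 2, and 13 without normoxia vehicle replicate 1, when 11 were lower and HIST1H1C and HIST1H2AC were higher.

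With ATRA, 35 of the 48 genes were lower in hyperoxia and 0 were higher by the same edgeR test, against 11.3% and 11.4% of all genes. At an unadjusted p under 0.05, 39 were lower and 0 higher, and DESeq2 called 36 lower and 0 higher. Here 25 of the calls came from the 32 genes that passed the filter within hyperoxia (78.1%, against 11.4% of all genes that passed in this way) and 10 from the 16 others. The median log2 fold change was -1.83 over the 32 genes, against 0.04 for all genes that passed within hyperoxia, and -2.37 over the 48. Leaving out 1 library at a time gave between 30 and 36 calls, and a fit that included the untreated libraries gave 23.

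Without vehicle, 11 genes were lower and 0 higher, against 7.58% and 7.57% of all genes, with 21 lower and 0 higher at an unadjusted p under 0.05 and 13 lower and 0 higher by DESeq2. Of the 11, 6 came from the 35 genes that passed the filter within hyperoxia (17.1%, against 7.81% of all genes that passed in this way), and 5 from the 13 that passed only through normoxia (HIST1H1B, HIST1H2BB, HIST1H2BE, HIST1H2BM and HIST1H3J). The median log2 fold change was -1.25 over the 35 genes, against -0.06 for all genes that passed within hyperoxia. Over the 48 it was -1.93, and -1.85 with the 4 genes at or under 3 counts in both hyperoxia libraries set to that floor. These libraries enter neither the vehicle nor the ATRA comparison. The number of calls rested on single libraries: it was 6 without hyperoxia replicate 1, the library with few genes detected, 30 without hyperoxia replicate 2 and 1, HIST1H1B, without normoxia replicate 2. A fit of edgeR on these 4 libraries alone called 0, with 5 at an unadjusted p under 0.05.

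Called lower in all 3 treatments were 10 genes, against 4.47% of all genes, and 6 of the 10 passed the filter within hyperoxia. In both vehicle and ATRA 25 were called lower, against 6.34% of all genes, of which 19 passed within hyperoxia, and in at least 1 treatment 37, against 15.3%. In none of the treatments were 11 tested genes called, against 69% of all genes. In 15 tested genes all 7 hyperoxia libraries lay below all 7 normoxia libraries, against 7.8% of all 15339 genes tested, and in 0 genes did they all lie above, against 5.82%. The 15 were HIST1H1B, HIST1H1D, HIST1H2AB, HIST1H2AG, HIST1H2AJ, HIST1H2AK, HIST1H2AM, HIST1H2BB, HIST1H2BE, HIST1H2BI, HIST1H2BL, HIST1H2BM, HIST1H3J, HIST2H2AB and HIST2H2BF. Of these, 7 came from the 35 genes that passed the filter within hyperoxia (20%, against 7.86% of all genes that passed in this way) and 8 from the 13 that passed only through normoxia. Without hyperoxia replicate 1 the count was 18, against 9.22% of all genes.

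**Figure D2:**
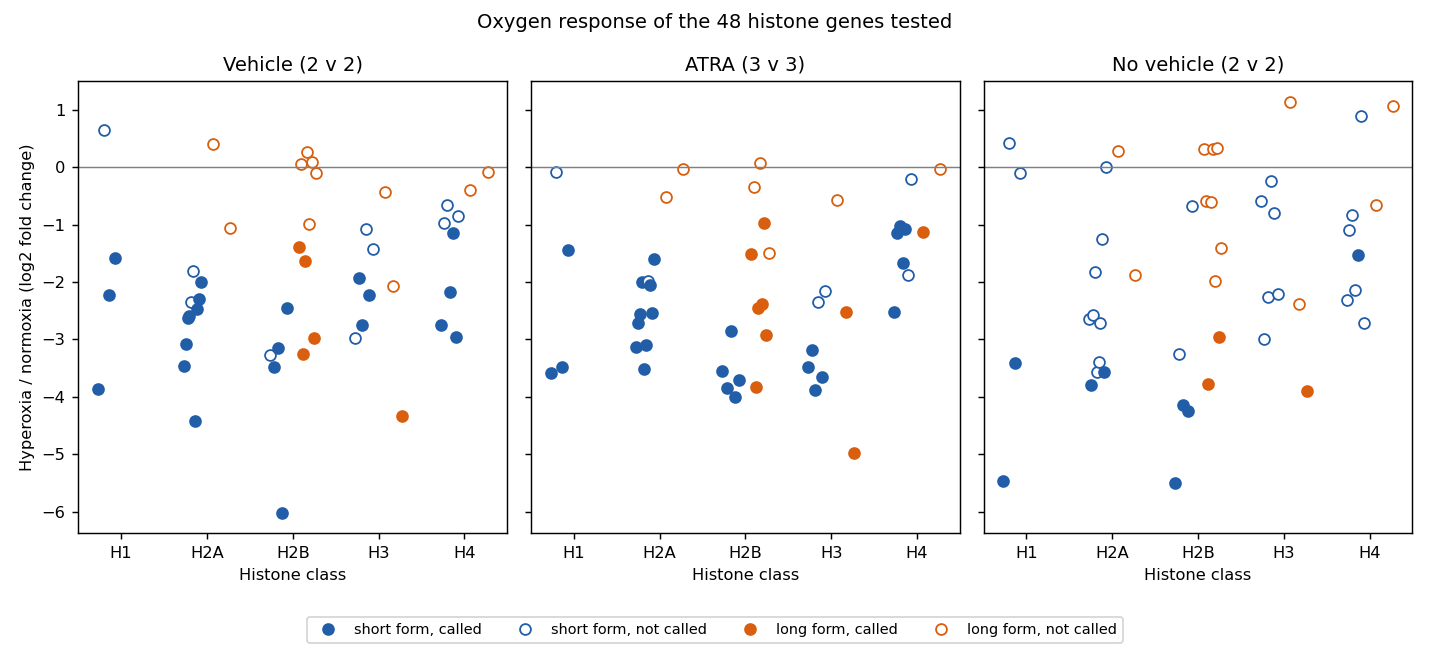
Log2 fold change of hyperoxia over normoxia for each of the 48 tested histone genes, by class, with vehicle, with ATRA and with neither. Filled points were called by edgeR (adjusted p under 0.05) and open points were not; blue marks short-form and orange long-form genes (an annotated intron, or a transcript or gene span over 1000 bases). The called points all lie below 0, and fitted values of genes with at most 3 counts in each hyperoxia library, such as the lowest H2B point with vehicle, depend on the prior count.

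Linker histone genes moved apart from one another. HIST1H1D (H1-3), which encodes a linker histone that binds DNA between nucleosomes, had 37.9 and 13.1 CPM with vehicle in normoxia and 6.92 and 3.93 CPM in hyperoxia. With ATRA it had 55.8, 50 and 59.9 CPM in normoxia and 5.62, 5.58 and 3.28 CPM in hyperoxia. Without vehicle it had 16.3 and 39.1 CPM in normoxia and 0 and 5.8 CPM in hyperoxia. Every hyperoxia library was thus below every normoxia library. Its log2 fold change was -3.48 ± 0.36 (SE) with ATRA (edgeR adjusted p = 3.25e-07), -2.22 ± 0.43 with vehicle (edgeR adjusted p = 0.000816) and -3.41 ± 0.89 without vehicle (edgeR adjusted p = 0.0165). The vehicle call was lost without normoxia vehicle replicate 1, where the log2 fold change was -1.33 (edgeR adjusted p = 0.0508).

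HIST1H1B (H1-5) is another linker histone gene whose level was near 0 in hyperoxia. It lay between 5.19 and 18.2 CPM over the 7 normoxia libraries, with a median of 16.6 CPM, and between 0 and 2.99 CPM over the 7 hyperoxia libraries. The oxygen levels did not overlap, and the gene was called lower in all 3 treatments, but it passed the filter only through normoxia and its vehicle call was lost without normoxia vehicle replicate 1. HIST1H1E (H1-4), the most abundant of the H1 genes that fell, had 84.2 and 43.1 CPM with vehicle in normoxia and 24 and 18.2 CPM in hyperoxia, a log2 fold change of -1.59 ± 0.28 (edgeR adjusted p = 0.000301). With ATRA its log2 fold change was -1.45 ± 0.22 (edgeR adjusted p = 5.46e-05). Without vehicle it was not called, and hyperoxia replicate 1, at 61.1 CPM, exceeded normoxia replicate 1, at 23.8 CPM.

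In contrast, HIST1H1C (H1-2), the H1 gene with the most counts, was not called lower in hyperoxia in any treatment. With vehicle it had 74.1 and 35.6 CPM in normoxia and 85.2 and 84 CPM in hyperoxia, and both hyperoxia libraries were the higher. With ATRA it had 57.4, 49.7 and 82.1 CPM in normoxia and 44.1, 88.1 and 46.4 CPM in hyperoxia, which overlapped. Log2 fold changes were 0.65 ± 0.31 with vehicle (edgeR adjusted p = 0.172), -0.07 with ATRA and 0.42 without vehicle. Over 16 alternative settings the vehicle value lay between 0.16 and 1.22 and was called higher in 3 of them. With ATRA its value lay between -0.48 and 0.13 over 16 alternative settings. As a share of all histone counts, HIST1H1C went from 4.67 to 7.56% in normoxia to 10.1 to 17.9% in hyperoxia, without overlap.

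Among H2A genes, which encode a core histone that pairs with H2B, HIST1H2AG and HIST1H2AM both fell. HIST1H2AG had 35.5 and 17.2 CPM with vehicle in normoxia and 3.73 and 2.5 CPM in hyperoxia. With ATRA it had 35.6, 27 and 59.1 CPM in normoxia and 4.74, 4.46 and 8.67 CPM in hyperoxia. No hyperoxia library reached the lowest normoxia library, normoxia replicate 1 without vehicle at 11.2 CPM. The log2 fold change was -3.08 ± 0.48 with vehicle (edgeR adjusted p = 7.99e-05), -2.71 ± 0.36 with ATRA (edgeR adjusted p = 1.02e-05) and -3.79 ± 0.93 without vehicle (edgeR adjusted p = 0.012). HIST1H2AM lay between 15.1 and 45.9 CPM in normoxia and between 4.65 and 12.9 CPM in hyperoxia, and was called lower with vehicle and with ATRA. Of the 12 tested H2A genes, 8 were called lower with vehicle, 9 with ATRA and 2 without vehicle, the last being HIST1H2AG and HIST2H2AB. Among all genes tested, 8.81%, 11.3% and 7.58% were called lower in these comparisons. Among the 8 H2A genes that passed the filter within hyperoxia in the first 2 comparisons, 6 were called in each. This was 75%, against 9.13% with vehicle and 11.4% with ATRA of all genes that passed in this way. Without vehicle it was 2 of 9 (22.2%, against 7.81%). HIST2H2AB lies in a cluster on chromosome 1, so the fall was not limited to chromosome 6.

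HIST1H2AC, the H2A gene with the most counts, was steadier. It had 45.2 and 17.3 CPM with vehicle in normoxia and 38.1 and 42.2 CPM in hyperoxia, and with ATRA 35, 32.3 and 50.4 CPM in normoxia and 25.3, 27.9 and 27.6 CPM in hyperoxia. The groups overlapped with vehicle, and with ATRA every hyperoxia library was the lower. Log2 fold changes were 0.40 ± 0.32 with vehicle (edgeR adjusted p = 0.458) and -0.51 ± 0.27 with ATRA (edgeR adjusted p = 0.182). HIST3H2A, in the small cluster on chromosome 1, was at 0 to 5.02 CPM throughout and was called in no comparison.

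Among H2B genes, some were near 0 in hyperoxia and others hardly differed. HIST1H2BM, which passed the filter only through normoxia, had 38 and 99 counts in the vehicle libraries in normoxia and 0 and 2 in those in hyperoxia, where its fitted fold change depends on the prior count. The ATRA libraries had 19.8, 15.5 and 29.8 CPM in normoxia and 0, 2.6 and 1.87 CPM in hyperoxia. Its highest hyperoxia library was far under its lowest normoxia library, at 12.2 CPM. The log2 fold change with ATRA was -4.01 ± 0.62 (edgeR adjusted p = 5.72e-05). HIST2H2BF, a chromosome 1 gene with spliced transcripts, had 31 and 24.1 CPM with vehicle in normoxia and 4.26 and 2.86 CPM in hyperoxia, a log2 fold change of -2.97 ± 0.48 (edgeR adjusted p = 0.000121). In the other treatments it was called lower by -2.92 with ATRA and by -2.95 without vehicle on the log2 scale. It shares 68.8% of its 50-base stretches with another member, and reads that fit both are not in the counts. HIST1H2BL lay between 7.46 and 37.8 CPM in normoxia and between 0 and 4.68 CPM in hyperoxia, and was also called in all 3 treatments.

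HIST1H2BK, the histone gene with the most counts of all 74, differed little between oxygen levels. It had 69.6 and 61.9 CPM with vehicle in normoxia and 84.9 and 74 CPM in hyperoxia. With ATRA it had 67.7, 56.5 and 82.6 CPM in normoxia and 67.1, 77.3 and 67.7 CPM in hyperoxia. The ATRA groups overlapped, and the vehicle groups were apart with hyperoxia the higher. The log2 fold change was 0.27 ± 0.19 with vehicle (edgeR adjusted p = 0.379) and 0.07 with ATRA. HIST1H2BD was 27.2 to 66.5 CPM in normoxia and 16.4 to 48 CPM in hyperoxia, which overlapped, and was called in none of the 3 treatments in the main fits. Over the alternative settings its log2 fold change lay between -0.455 and -0.221 with ATRA and between -1.319 and -0.098 without vehicle. HIST2H2BE, in the chromosome 1 cluster, had 32.7 and 24.5 CPM with vehicle in normoxia and 34.3 and 26.8 CPM in hyperoxia. Under ATRA it had 29.8, 39.8 and 38 CPM in normoxia and 16.3, 17.1 and 20.1 CPM in hyperoxia, and was called lower by 0.96 on the log2 scale (edgeR adjusted p = 0.00322). The difference between these oxygen effects was -1.06 ± 0.35, which did not pass the interaction test (edgeR adjusted p = 0.391).

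**Figure D3:**
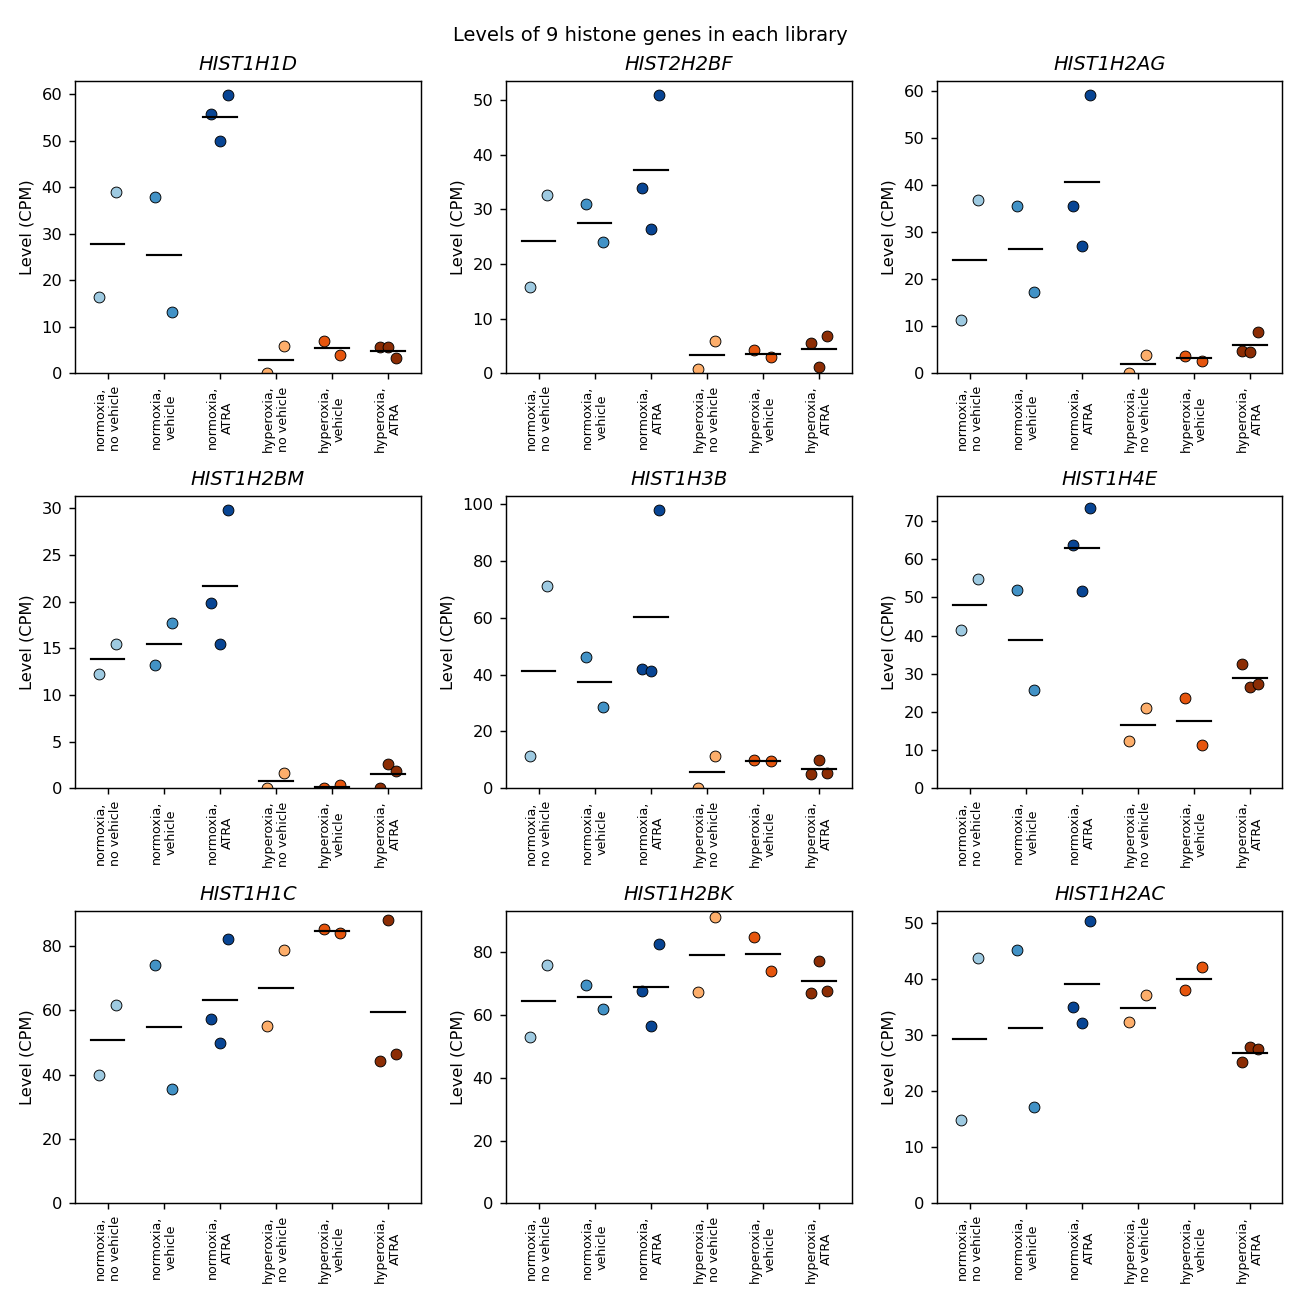
Levels (CPM) of 9 histone genes in the 14 labelled libraries by group. Each point is 1 library and each horizontal line a group mean, with axes from 0; HIST1H1D, HIST2H2BF, HIST1H2AG and HIST1H2BM had every hyperoxia library below every normoxia library, whereas HIST1H1C, HIST1H2BK and HIST1H2AC overlapped between oxygen levels.

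Among H3 genes, HIST1H3B had the most counts. It had 46.3 and 28.6 CPM with vehicle in normoxia and 9.85 and 9.65 CPM in hyperoxia, and with ATRA 42.1, 41.3 and 98 CPM in normoxia and 4.92, 10 and 5.39 CPM in hyperoxia. Both treatments thus kept the oxygen levels apart, and without vehicle they overlapped, at 11.2 and 71.4 CPM in normoxia against 0 and 11.3 CPM in hyperoxia. The log2 fold change was -1.93 ± 0.40 with vehicle (edgeR adjusted p = 0.00168) and -3.19 ± 0.35 with ATRA (edgeR adjusted p = 8.56e-07). HIST1H3C, which encodes the same class, had 25.4 and 10.4 CPM with vehicle in normoxia and 2.66 and 2.5 CPM in hyperoxia, a log2 fold change of -2.75 ± 0.62 (edgeR adjusted p = 0.00289). This call was lost without normoxia vehicle replicate 1, where the value was -2.03 (edgeR adjusted p = 0.0673), and in the fit of 14 libraries (edgeR adjusted p = 0.172). HIST1H3J lay between 6.48 and 31.9 CPM in normoxia and between 0 and 2.6 CPM in hyperoxia, and was the H3 gene called in all 3 treatments, though it passed the filter only through normoxia. Of the 9 tested H3 genes, 4 were called lower with vehicle and 6 with ATRA, of which 3 and 4 were among the 4 that passed within hyperoxia. As shares of those 4 genes these were 75% and 100%, against 9.13% and 11.4% of all genes that passed in this way.

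Of the 9 tested H4 genes, 8 passed the filter within hyperoxia, and 3 of these were called lower with vehicle and 6 with ATRA. As shares of the 8 genes these were 37.5% and 75%, against 9.13% and 11.4% of all genes that passed in this way. The median log2 fold change of the 8 was -0.91 with vehicle and -1.10 with ATRA, against -1.39 and -2.38 for the 9 H2B genes that passed within hyperoxia. The order was the reverse for summed levels with vehicle, where H4 had the larger fold (2.03 against 1.61), and the difference between the classes was not tested. HIST1H4E, the most abundant, had 51.8 and 25.8 CPM with vehicle in normoxia and 23.7 and 11.4 CPM in hyperoxia. The ATRA libraries had 63.7, 51.6 and 73.4 CPM in normoxia and 32.5, 26.4 and 27.4 CPM in hyperoxia. In each treatment its groups were apart, and it was called lower in all 3, by 1.15 with vehicle (edgeR adjusted p = 0.0179), by 1.08 with ATRA (edgeR adjusted p = 0.00375) and by 1.52 without vehicle (edgeR adjusted p = 0.0159), written as falls on the log2 scale. The vehicle call was lost without normoxia vehicle replicate 1 and without hyperoxia vehicle replicate 2, and the log2 fold change nearest to 0 with 1 library left out was -0.61 (edgeR adjusted p = 0.383). HIST1H4C was called only with ATRA, where its log2 fold change was -1.02 ± 0.28 (edgeR adjusted p = 0.0115), and the call was lost without hyperoxia ATRA replicate 3 (edgeR adjusted p = 0.0558). HIST4H4, the lone member on chromosome 12, lay between 2.95 and 16.9 CPM in normoxia and between 6.92 and 13.4 CPM in hyperoxia and was called in none.

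Some histone genes are also annotated with an intron or with a transcript or gene span longer than 1000 bases, and transcripts that run past the stem-loop can be polyadenylated. These long-form genes numbered 23, of which 16 were tested, against 51 short-form genes, of which 32 were tested. The tested genes that passed the filter only through normoxia made up 4 of the 16 long-form and 12 of the 32 short-form genes, and they are left out of the next counts. With vehicle, 3 of the other 12 long-form and 16 of the other 20 short-form genes were called lower, with median log2 fold changes of -0.69 and -2.22. With ATRA, 7 and 18 were called lower, with medians of -1.04 and -2.29. Without vehicle, where 13 long-form and 22 short-form genes passed within hyperoxia, 1 and 5 were called lower, with medians of -0.59 and -1.98. As shares these were 25% and 80% with vehicle, against 9.13% of all genes that passed within hyperoxia. With ATRA they were 58.3% and 90%, against 11.4%. Without vehicle they were 7.69% and 22.7%, against 7.81%, so the long-form share was near that of all genes. The difference between the forms was not tested. Long-form genes included HIST1H2BK, HIST1H2BD, HIST1H2AC and HIST4H4, called in no oxygen comparison, but also HIST2H2BF, which was called lower in each treatment. The long-form gene HIST1H3J was called in each as well, but passed the filter only through normoxia. HIST1H1C has no annotated long form. Long-form genes made up 31.5 to 40.7% of histone counts in normoxia, with a median of 32.9%, and 41.8 to 54.3% in hyperoxia, with a median of 49.3%. The libraries of the oxygen levels did not overlap in this share. The counts do not separate the transcripts of a gene, so which form was sequenced was not tested.

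Shares within each library do not depend on the scaling between libraries. Class H3 made up 6.63 to 15.6% of histone counts in normoxia and 2.14 to 7.58% in hyperoxia, which overlapped through normoxia replicate 1 and hyperoxia replicate 2 without vehicle. Class H2A went from 19.4 to 24.2% in normoxia to 14.5 to 18.4% in hyperoxia, without overlap. Class H1 made up 14.7 to 18.1% in normoxia and 17.9 to 26% in hyperoxia. Chosen after their values were seen, the 5 genes HIST1H1C, HIST1H2AC, HIST1H2BD, HIST1H2BK and HIST2H2BE held 18.9 to 28.5% of histone counts in normoxia and 43.2 to 57.7% in hyperoxia. Because of that choice, the gap in their share restates the values of these genes and is no further support. HIST2H2BE among them was called lower with ATRA.

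**Figure D4:**
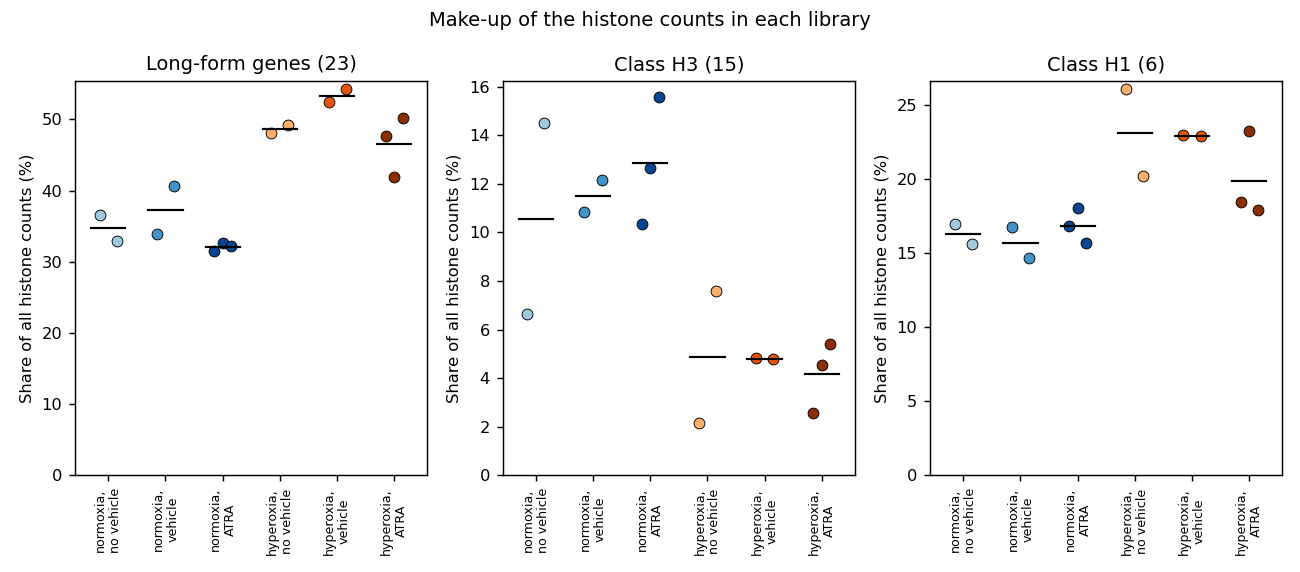
Share (%) of all histone counts in each of the 14 labelled libraries held by the 23 long-form genes, by class H3 and by class H1. Points are libraries, horizontal lines group means and axes start at 0; the long-form share was at most 40.7% in normoxia and at least 41.8% in hyperoxia.

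Levels were also compared between genes per 1000 bases of coding transcript, as medians over 7 libraries. The shortest coding transcript was used, while counts may include reads from longer forms. Values of long-form genes such as HIST1H2BK and HIST1H2BD may therefore be too high. In normoxia the highest were HIST1H2BK at 137 CPM per 1000 bases, HIST1H4E at 126 and HIST1H2BD at 105. In hyperoxia HIST1H2BK stayed first at 150, followed by HIST1H1C at 107 and HIST1H2BD at 83.4, with HIST1H4E at 57.5. The order thus changed below the first place, and HIST1H1C stood at 78.6 in normoxia. Histone genes known from testis had few counts, with at most 1 in any library for HIST1H1T, 4 for HIST3H3 and 0 for HIST1H2BA.

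ATRA did not move any histone gene past the threshold at either oxygen level. In normoxia 0 of 48 genes were called by edgeR and by DESeq2, against 1.25% of all genes by edgeR (0.435% lower and 0.816% higher), with 4 at an unadjusted p under 0.05, all higher with ATRA. In hyperoxia 0 were called by either tool, against 2.21% of all genes by edgeR (0.695% lower and 1.52% higher), with 8 at an unadjusted p under 0.05, of which 7 were higher. The interaction of oxygen and ATRA called 0 histone genes with either tool, against 0.14% of all genes by edgeR (0.0401% lower and 0.1% higher), with 4 at an unadjusted p under 0.05. HIST1H1D had the smallest p in normoxia, at a log2 fold change of 1.16 ± 0.35 over vehicle (edgeR adjusted p = 0.143). It was called without normoxia vehicle replicate 1 (log2 fold change 2.07, edgeR adjusted p = 0.019). HIST2H2BE had the smallest p in hyperoxia, at -0.73 ± 0.25 (edgeR adjusted p = 0.152). In hyperoxia, the 74 genes summed to 476 ± 49.2 CPM under ATRA (SD over 3 libraries), against 489 ± 29 CPM under vehicle (SD over 2). In normoxia these sums were 1320 ± 340 and 971 ± 437 CPM, and the groups overlapped at both oxygen levels. The median log2 fold change over the 48 genes was 0.51 in normoxia, with 3 genes below 0, against 0.001 for all genes. In hyperoxia it was 0.42, with 19 genes below 0, against 0.004 for all genes. Whether the genes shifted together was not tested. A p above the threshold does not show that ATRA left these genes as they were.

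Genes that serve replication fell beside the histone genes. Most genes for histone mRNA synthesis and end formation were not called, as was so among all genes. Of 27 genes of S phase, 17 were lower and 0 higher in hyperoxia with vehicle, 20 and 0 with ATRA and 15 and 0 without vehicle. Among all genes tested, 8.81% were lower and 8.68% higher with vehicle. These shares were 11.3% and 11.4% with ATRA and 7.58% and 7.57% without vehicle. MCM7, a subunit of the replicative helicase, fell by 1.54 on the log2 scale with vehicle (edgeR adjusted p = 4.14e-07) and CCNA2, cyclin A2, fell by 2.31 (edgeR adjusted p = 7.39e-06). Summed over the 27 genes, levels were 2380 to 2580 CPM in normoxia and 1070 to 1540 CPM in hyperoxia, without overlap. Of 18 chaperones and modifiers of new histones, 8 were lower and 0 higher with vehicle, among them HJURP, the chaperone of CENPA, which fell by 1.58 (edgeR adjusted p = 2.85e-05), and CHAF1B, a subunit of the CAF-1 chaperone of replication, which fell by 1.14 (edgeR adjusted p = 0.0112). Of 17 tested genes for histone mRNA synthesis and end formation, 0 were lower and 3 higher with vehicle, 0 and 4 with ATRA and 2 and 2 without vehicle. The 2 that were lower were the cleavage factor CPSF3 and the cap-complex partner SRRT. With vehicle the 3 were the 3′ end processing factors CPSF2 and SYMPK and the cap-binding NCBP2, by 0.52 to 0.60 on the log2 scale.

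Replacement histone genes went both ways. With vehicle 4 of 12 were lower and 2 higher, and the counts were 4 and 2 with ATRA and 5 and 2 without vehicle. H2AFZ, which encodes H2A.Z, fell from 181 to 55.8 CPM (mean, n = 2) with vehicle (edgeR adjusted p = 3.45e-07). H1F0, a linker histone linked to cells that have stopped dividing, rose from 108 to 194 CPM (edgeR adjusted p = 0.000148) and H3F3B, which encodes H3.3, from 204 to 359 CPM (edgeR adjusted p = 0.000131). The list as a whole summed to 1040 to 1130 CPM in normoxia and 924 to 1040 CPM in hyperoxia, a far narrower gap than that of the replication-dependent genes.

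No RNA of a list that carries no poly(A) tail was called lower. Of 9 such RNAs tested with edgeR, 0 were lower and 3 higher in hyperoxia with vehicle, 0 and 4 with ATRA, and 0 and 0 without vehicle, where 4 passed an unadjusted p under 0.05. Of all genes, 8.68%, 11.4% and 7.57% were higher in these comparisons. RN7SL1, the signal recognition particle RNA, was 187 to 2140 CPM in normoxia and 1440 to 2550 CPM in hyperoxia. Their sum over 10 RNAs was 1850 to 22200 CPM in normoxia, with a median of 7700 CPM, and 14500 to 24200 CPM in hyperoxia, with a median of 17300 CPM. The spread was thus wider in normoxia, as it was for the histone genes, and whether recovery of such RNA in the libraries played a part in the histone values was not tested.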

How the data were processed

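RNA was extracted from A549 cells and sequenced as directional libraries. Per the labels and methods, the authors trimmed reads with Trimmomatic 0.38, dropped short ones, aligned to hg38 with hisat2 and counted reads per gene symbol with htseq. The annotation release, the strand and overlap settings and any poly(A) selection or rRNA depletion are not given in the sources used here. The deposited values are raw counts, 1 table for each library. In the labelled libraries, 75.2 to 78.4% of all reads listed were assigned to no gene and entered no total. Reads that lay on no annotated gene made up 48.6 to 55.3% of all reads listed, and reads that were not unique 7.83 to 8.91%. The remaining unassigned reads were left out for other reasons. Members, lists and tests were chosen with earlier results of these data known. The groups came from the labels. A library whose labels disagree entered no comparison.

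Tests were run in edgeR 4.0.16 under R 4.3.3 (filterByExpr, minimum count 10, minimum total 15, TMM, quasi-likelihood test, Benjamini-Hochberg over all genes, adjusted p under 0.05). The vehicle, ATRA and interaction comparisons used 10 libraries in 4 groups (14957 genes), and the comparison without vehicle 14 libraries in 6 groups (15339 genes). CPM are counts over TMM-scaled library sizes. Class sums carry no test. On simulated counts for the vehicle comparison (14506 genes), 96% of genes changed by 2 and 100% of those changed by 3 on the log2 scale were recovered. The changed genes excluded the least abundant ones, and their spread followed the fitted trend. These rates therefore do not cover histone genes with few counts or more spread, which can be uncalled at such changes. Named genes were the 30 members with the smallest adjusted p and the 2 with most counts in each class, and HIST1H1T, HIST1H2BA, HIST3H2A, HIST3H3 and HIST4H4 were named after their values were seen. Alternatives were DESeq2 1.42.0, RLE factors, no filter, other sets of libraries and each library left out. Gene structures came from GENCODE 44 and RefSeq GRCh38.p14, in which all 74 members were found, and 9 members overlap another gene.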

Additional observations from a re-analysis of the deposited data

How the results depend on the processing

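No called oxygen difference of a named gene changed sign under the alternatives, but the number of calls moved. With vehicle, the 27 calls became 9 when all 14 labelled libraries were fitted in 6 groups, of which 9 were among the 27, and lay between 13 and 30 when 1 library was left out. With ATRA, the 35 calls became 23 in the fit of 14 libraries and lay between 30 and 36 when 1 library was left out. Without vehicle, the 11 calls became 21 with no filter on low counts and 0 in the fit of only the groups compared, and lay between 1 and 30 when 1 library was left out. For ATRA against vehicle, the 0 calls became 1 in normoxia with no filter, and lay between 0 and 1 in either oxygen level when 1 library was left out (HIST1H1D in normoxia, HIST1H2AI in hyperoxia). Leaving the most abundant member out of each class moved the summed log2 difference of H1 to -1.88 and of H2A to -2.49 for oxygen with vehicle, and of H1 to -2.12 and of H2B to -1.70 for oxygen with ATRA. For ATRA in hyperoxia it moved H1 to 0.39, H2A to 0.71 and all classes to 0.14. The cause of these changes was not tested, beyond the smaller number of libraries or genes that some settings leave. Among the values for called differences of single named genes, 431 kept their direction and their call and 69 kept only their direction. Uncalled values could change sign: with vehicle, HIST1H2AC lay between -0.21 and 1.18 and HIST1H2BD between -0.47 and 0.67 on the log2 scale, and HIST1H1C was called higher in 3 of 16 settings and HIST1H2AC in 1. The count of genes that did not overlap between oxygen levels was 18 and 16 without hyperoxia replicate 1 and hyperoxia ATRA replicate 1, alternatives added after the data were seen. A lone library left in a group was taken to vary like those of the other groups. No paired analysis was possible because the labels give the libraries no replicate numbers. Few counts left 26 members untested, 8 of which share most of their sequence with another member and lose reads that are not unique.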

Other observations

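A further A549 library is titled as hyperoxia, while its treatment label names adipogenic differentiation, so it was put in no group and entered no comparison. It had 2149 histone counts, or 469 CPM summed over the 74 genes. HIST1H1C had 83.9 CPM in it, HIST1H1D 4.59 CPM and HIST1H1B 0.437 CPM. The 15 H3 genes summed to 20.8 CPM and the 20 H2B genes to 199 CPM.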
